A study of Mus musculus with 6 samples.

Results

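The comparison described here set 1 library of mouse embryonic fibroblasts that carried a short hairpin RNA (shRNA) against Pcyt2 beside the control libraries that carried an shRNA against luciferase (shLuc). Polyadenylated RNA was sequenced, and the deposited values are RPKM, which divide the reads of a gene by its length and by the depth of its library. Genes whose RPKM averaged 1 or more across the 6 libraries were compared as log2(RPKM + 1), and rows of short RNAs (names starting Mir, Snor, Snord, Scarna or Rnu) were left out. That kept 11814 of the 18301 genes in the table, among them 11539 that RefSeq annotates as protein-coding. The genes described are the 7901 protein-coding genes that stood above or below both shLuc libraries in the shPcyt2 library, or 388 where the distance from the nearer shLuc library had to reach 0.25 log2 units.

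All groups were embryonic fibroblasts of the cross CBA/CaJ X C57BL/6J, transfected with shRNA and collected on day 2 of reprogramming in iCD1, a chemically defined medium. The shLuc control had 2 libraries, and shPcyt2 had 1. The other libraries used here, each alone in its group, were shEtnk1/2 (directed at both ethanolamine kinases), Etn-deprived (shLuc cells in iCD1 without ethanolamine) and shPebp1 (directed at the phosphatidylethanolamine-binding protein). The labels give no age of the embryos, no hairpin sequence and no statement that the shLuc libraries came from separate cultures, so p-values measure only the spread between these samples. Cells with shPebp1 in medium without ethanolamine were not analysed here. In bulk RNA, fewer cells of a type and less RNA per cell cannot be told apart.

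Phosphatidylethanolamine is one of the main phospholipids of animal membranes. In the CDP-ethanolamine branch of the Kennedy pathway, the kinases Etnk1 and Etnk2 phosphorylate ethanolamine, Pcyt2 couples the product to CTP to give CDP-ethanolamine, and the transferases Selenoi (Ept1 in the table) and Cept1 join it to diacylglycerol. The step catalysed by Pcyt2 is usually the slow one. Mitochondria make the same lipid separately, by decarboxylation of phosphatidylserine through Pisd. Phosphatidylethanolamine is also the lipid that is attached to the LC3 and GABARAP proteins in autophagy and the donor of the ethanolamine phosphate in GPI anchors. The series asked how this pathway bears on the mesenchymal-to-epithelial transition, the early step of reprogramming in which fibroblasts take on epithelial features.

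The libraries held between 18467583 and 20020465 reads in genes, with 19233255 for shPcyt2, and the tested genes had a median of 713 reads per library. Pebp1 was as low in one control library as in its own knockdown. It stood at 250.4 RPKM in shLuc replicate 1, 100.7 in the library labelled shLuc replicate 2, 263.4 in shPcyt2 and 99.6 in shPebp1. Each result is therefore given against both libraries, with shLuc replicate 1 first and the library labelled replicate 2 second, and counts are also given with either of them left out. Fibroblast markers were high in all 3 libraries: the summed level of the 12 measured members was 10831, 10848 and 11378 RPKM. Of the 12 macrophage markers 5 reached 1 RPKM, and of the 10 endothelial markers only Tek did.

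Pcyt2, the target of the hairpin, was lower in the shPcyt2 library than in both controls and was one of 4 protein-coding genes that passed the test. It measured 42.0 and 40.0 RPKM in the shLuc libraries and 29.9 RPKM in shPcyt2, from 1555, 1446 and 1063 reads. The 95% Poisson intervals, which cover counting error only, were 39.96 to 44.17, 38.01 to 42.17 and 28.13 to 31.76 RPKM, so the groups did not overlap. The level in shPcyt2 was 72.9% of the shLuc mean. In limma the difference was -0.44 on the log2 scale (SE 0.08, adjusted p = 0.0415). The gene lies on the minus strand of chromosome 11 at 120610087 to 120617890 in mm10.

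Pcyt2 measured 35.6 RPKM in shEtnk1/2, 33.5 in Etn-deprived and 38.3 in shPebp1, all between shPcyt2 and shLuc. Against shLuc it was lower in Etn-deprived (-0.29, limma adjusted p = 0.0368), while shEtnk1/2 (-0.20, limma adjusted p = 0.16) and shPebp1 (-0.10, limma adjusted p = 0.937) did not pass the test. The log2 difference between shPcyt2 and shEtnk1/2 was -0.24 (SE 0.10, limma adjusted p = 0.222), and between shPcyt2 and Etn-deprived it was -0.16 (SE 0.10, limma adjusted p = 0.376). Neither contrast passed the threshold, which does not show that the levels were alike. Over the 13 alternative fits the adjusted p of Pcyt2 against shLuc ran from 0.0159 to 1.00 and passed 0.05 in 4, while the difference itself stayed between -0.41 and -0.48. With the library labelled shLuc replicate 2 left out the difference was -0.48 and did not pass the test.

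**Figure D1:**
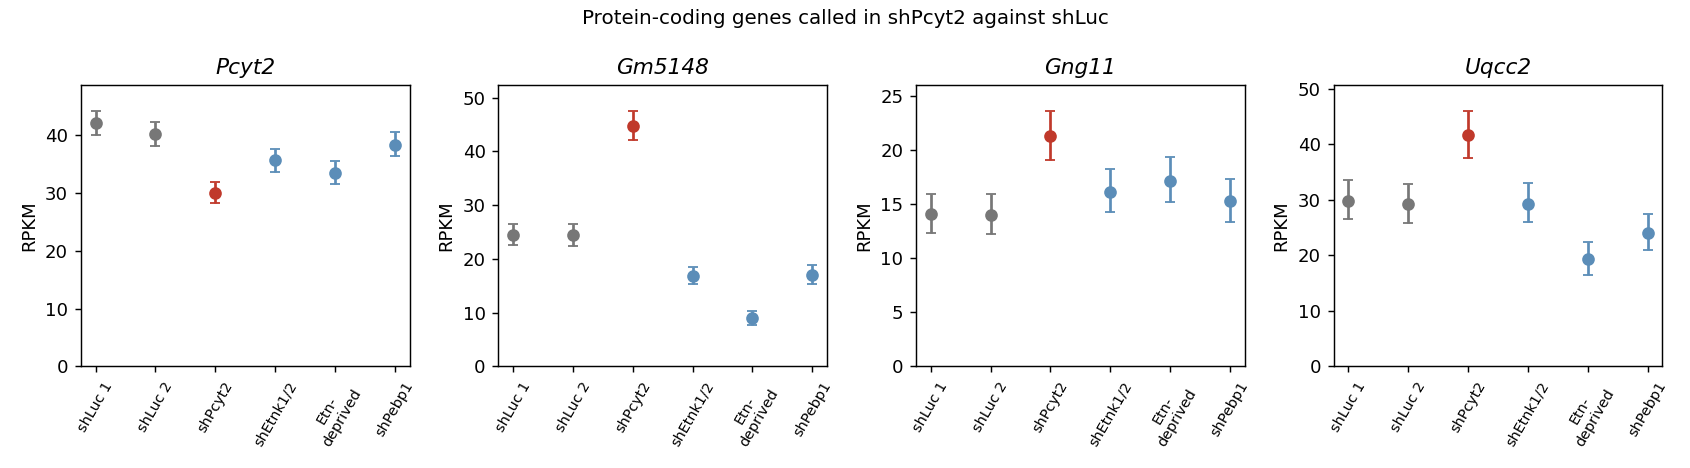
RPKM of the 4 protein-coding genes that limma called in shPcyt2 against shLuc, in each of the 6 libraries. Points are single libraries, bars are 95% Poisson intervals of the recovered reads (counting error only), grey marks shLuc, red shPcyt2 and blue the other treatments, and shLuc 2 is the library so labelled. Pcyt2 is lowest in shPcyt2 at 29.9 RPKM, and Gm5148, Gng11 and Uqcc2 are highest there at 44.8, 21.3 and 41.7 RPKM.

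Of the 11814 genes tested, limma called 3 higher (0.0254%) and 2 lower (0.0169%) in shPcyt2, and 790 had an unadjusted p under 0.05. The treated library has no replicate and was assumed to vary as the shLuc libraries do, and an exact permutation of 1 against 2 libraries allows no p below 0.333. The 5 genes were Gm5148, Gng11, Uqcc2, Pcyt2 and DQ267100. DQ267100 is annotated as a small nucleolar RNA of 71 nt, a short RNA that the filter on names did not remove. It had no read in shPcyt2 against 2.79 and 2.86 RPKM in shLuc. Those values are 4 reads in each, so its call rests on very few reads. With either shLuc library left out limma called 0 genes, with 119 and 114 genes at an unadjusted p under 0.05, in fits where the spread came from the other 3 treated libraries taken as 1 group. limma-voom on the recovered reads called 36, among them Gm5148 and Pcyt2 but not Gng11 or Uqcc2. With median ratio scaling, quantile normalization or the length trend removed, limma called Gm5148 and DQ267100 alone, and with a mean of at least 5 RPKM Gm5148 alone.

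Gng11, a gamma subunit of heterotrimeric G proteins, measured 14.04 and 14.03 RPKM in the shLuc libraries and 21.3 RPKM in shPcyt2. The shLuc libraries differed by far less than the distance to shPcyt2, and the log2 difference was 0.57 (SE 0.10, limma adjusted p = 0.0226). The other treatments lay in between, at 16.1 RPKM in shEtnk1/2, 17.2 in Etn-deprived and 15.3 in shPebp1. The gene is on the plus strand of chromosome 6 at 4003987 to 4008446.

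Uqcc2, an assembly factor of respiratory complex III in mitochondria, measured 29.9 and 29.2 RPKM in shLuc and 41.7 RPKM in shPcyt2. The log2 difference was 0.48 (SE 0.09, limma adjusted p = 0.0313). Etn-deprived lay on the other side of shLuc at 19.3 RPKM, and shPcyt2 exceeded it by 1.07 log2 units (SE 0.10, limma adjusted p = 1.15e-07). The gene is on the minus strand of chromosome 17 at 27122665 to 27133891, and its transcript of 473 nt is short.

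Gm5148 had the largest log2 difference among the protein-coding genes with at least 100 reads. It measured 24.5 and 24.4 RPKM in shLuc and 44.8 RPKM in shPcyt2, a log2 difference of 0.85 (SE 0.09, limma adjusted p = 1.3e-05). It was below shLuc in the other treatments, at 16.9 RPKM in shEtnk1/2, 8.98 in Etn-deprived and 17.1 in shPebp1. The gene is on the minus strand of chromosome 3 at 37714190 to 37724360, and the deposited table describes it as a 40S ribosomal protein S23.

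The value of Gm5148 is uncertain, because 427 nt of its transcript are identical to Rps23, the ribosomal protein gene on chromosome 13, on the opposite strand. Of these, 398 nt lie in the 432 nt coding part of Rps23. Gm5148 shares a stretch with 6 genes, the longest with Rps23. Its exons also overlap Rps23-ps1, annotated as a processed pseudogene on the opposite strand. The stretch shared with Rps23 is shown because reads from it cannot be assigned to one gene by sequence. Its first 90 coding bases, 5′ to 3′ in the sense of Rps23 and taken from the GENCODE M21 transcripts (GRCm38), with the start codon in capitals, are:

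Rps23 coding bases 1 to 90, also in Gm5148: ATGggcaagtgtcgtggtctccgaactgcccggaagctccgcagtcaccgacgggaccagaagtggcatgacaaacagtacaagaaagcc

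Rps23 itself measured 607 and 614 RPKM in shLuc and 649 RPKM in shPcyt2, a log2 difference of 0.09 (SE 0.06, limma adjusted p = 0.873). The reads given to Gm5148 were 8.85% and 8.69% of those given to Rps23 in the shLuc libraries and 15.1% in shPcyt2. The share was 6.83% in shEtnk1/2, 3.78% in Etn-deprived and 6.29% in shPebp1. The Gm5148 value therefore did not follow Rps23 in fixed proportion, and how the reads were divided was not tested.

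Among the protein-coding genes, 3350 (29.0%) were above both shLuc libraries and 4551 (39.4%) below both. At a distance of at least 0.25 from the nearer library the numbers were 169 above (1.46%) and 219 below (1.90%), and at 0.5 they were 13 and 10. Taken against 1 library at a time the numbers were larger. Against shLuc replicate 1 alone 486 genes were at least 0.25 higher and 598 lower, and against the library labelled replicate 2 alone 592 and 694. The median absolute difference over all tested genes was 0.088 and 0.0981 between shPcyt2 and each shLuc library, and 0.0868 between the shLuc libraries. For shPebp1 it was 0.096 and 0.083. By this measure the library labelled replicate 2 lay nearer to shPebp1 than to shLuc replicate 1. Whether its label holds was not tested. By the same rule of 0.25 against the same shLuc libraries, 1412 genes stood outside in shEtnk1/2, 1351 in Etn-deprived and 396 in shPebp1.

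**Figure D2:**
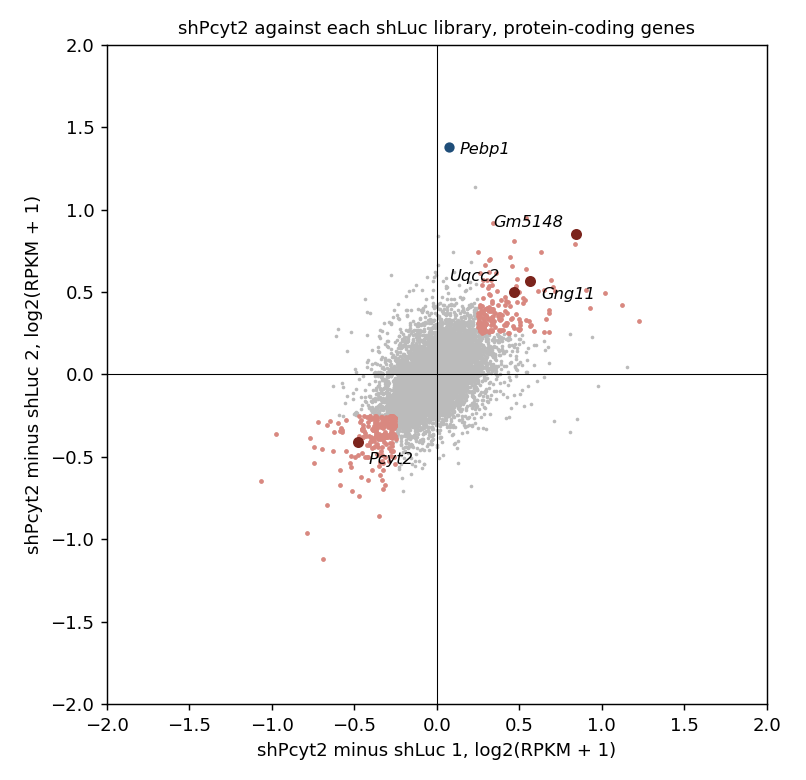
Difference of shPcyt2 from each shLuc library for the protein-coding genes tested, in log2(RPKM + 1) units; shLuc 2 is the library so labelled. Light red points are at least 0.25 above or below both (169 and 219 genes), dark red points are the genes limma called, the blue point is Pebp1, and 1 gene lies outside the plotted range. Most genes lie near the origin, and Pebp1 differs from the library labelled shLuc 2 only.

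The split between higher and lower genes went with transcript length. Of the 294 genes up to 700 nt, 48.6% were above both shLuc libraries and 21.4% below both. Of the 2221 genes over 5000 nt, 15.0% were above both and 58.7% below both. The median difference ran from 0.05 for the shortest to -0.06 for the longest genes, while between the shLuc libraries it ran from -0.03 to 0.01. With the length trend removed, 3904 genes were above both and 3748 below both. With median ratio scaling the split was 4068 and 3836, and with quantile normalization 3651 and 4097.

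**Figure D3:**
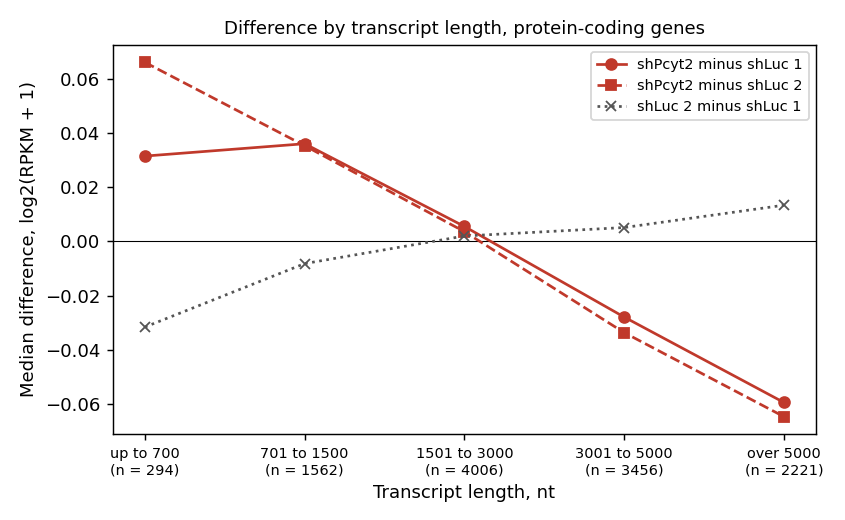
Median difference in log2(RPKM + 1) by transcript length for the protein-coding genes, with the number of genes in each class. Red lines set shPcyt2 against each shLuc library and the grey line sets the shLuc libraries against each other. Against both shLuc libraries the median of shPcyt2 is above 0 up to 1500 nt and below 0 over 3000 nt.

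The genes furthest above both shLuc libraries, among those with a mean of at least 100 reads, were 12 with distances from the nearer library of 0.42 to 0.84. Cbx8, a chromobox subunit of Polycomb repressive complex 1, measured 4.91, 4.52 and 7.60 RPKM in shLuc replicate 1, the library labelled replicate 2 and shPcyt2. Ndufaf2, an assembly factor of respiratory complex I, measured 12.5, 12.5 and 17.3 RPKM. Coa4, a factor in cytochrome c oxidase assembly, measured 7.97, 8.53 and 12.0 RPKM. These genes were chosen for their distance, and the limma adjusted p-values were 0.108, 0.114 and 0.0975, which miss the threshold.

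Hint2, a mitochondrial histidine triad hydrolase, measured 9.65, 7.40 and 13.7 RPKM. Pstk, the kinase that phosphorylates seryl-tRNA on the way to selenocysteine, measured 8.26, 6.66 and 11.6 RPKM. Clu, the extracellular chaperone clusterin, measured 3.32, 3.23 and 4.77 RPKM. These did not pass the test either, with limma adjusted p-values of 0.106, 0.0904 and 0.533. Stx11 (a syntaxin), Nkain1 (an interactor of the sodium pump) and 2310009A05Rik complete the 12 with Gm5148, Gng11 and Uqcc2. Pstk shares 271 nt with Ikzf5 on the opposite strand, 2310009A05Rik overlaps Pigb and Ndufaf2 overlaps a long noncoding RNA, so without a stated strand setting their reads cannot be told apart from those of their partners.

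The 12 genes furthest below both had distances of 0.39 to 0.54 from the nearer library. Pigf, which acts with Pigo and Pigg when ethanolamine phosphate is moved from phosphatidylethanolamine to the GPI anchor, measured 7.08, 6.95 and 4.64 RPKM, a log2 difference of -0.51 (SE 0.13, limma adjusted p = 0.145). It shares 315 nt with Rhoq on the opposite strand. Its partners showed no such distance: Pigo measured 7.55, 7.53 and 7.53 RPKM and Pigg 4.42, 4.20 and 4.63 RPKM.

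Gdpd2, a glycerophosphodiester phosphodiesterase, measured 8.91, 8.99 and 5.89 RPKM. Sptssb, a small subunit of serine palmitoyltransferase, the first enzyme of sphingolipid synthesis, measured 6.26, 7.72 and 4.23 RPKM. Both were low in shEtnk1/2 too, at 5.52 and 3.15 RPKM, and stood at 7.67 and 5.73 RPKM in Etn-deprived. The limma adjusted p-values against shLuc were 0.0904 and 0.108.

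Glmn, a regulator of cullin-RING ubiquitin ligases, had the largest distance below both, with 6.08, 5.14 and 3.22 RPKM. Bri3, a small membrane protein, measured 18.8, 18.9 and 13.8 RPKM, and Deb1 measured 14.6, 15.5 and 10.7 RPKM. The limma adjusted p-values were 0.0904, 0.0975 and 0.0904. Kdm8 (a JmjC-domain protein), Cfb (complement factor B), Ccdc39 (a protein of motile cilia), Utp14b, Aasdh and Pcyt2 made up the rest. Of these 24, 9 share an identical or nearly identical stretch of at least 100 nt with another gene and 11 overlap another gene, among the lower ones Glmn, Gdpd2, Bri3, Ccdc39, Cfb and Utp14b besides Pigf.

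**Figure D4:**
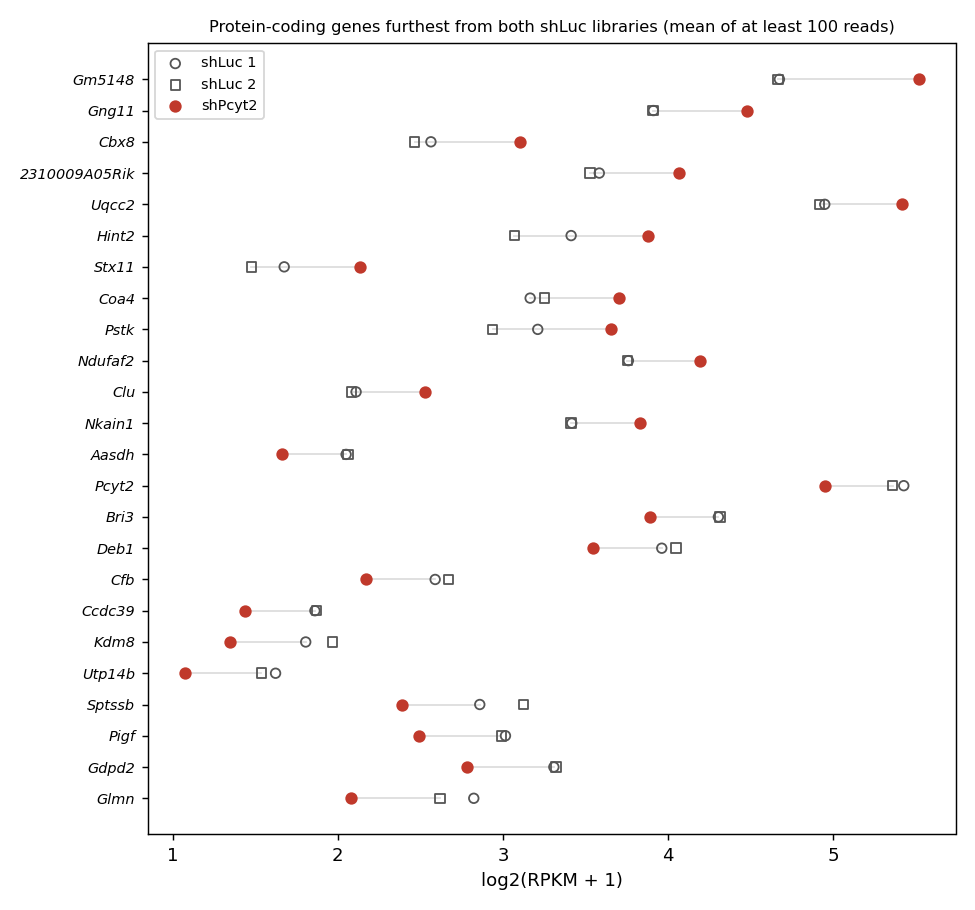
Levels in log2(RPKM + 1) of the 12 protein-coding genes furthest above and the 12 furthest below both shLuc libraries (mean of at least 100 reads), 1 row per gene. Open grey symbols are the shLuc libraries (shLuc 2 is the library so labelled) and red points are shPcyt2. The rows were chosen for the distance of the red point from the nearer grey symbol, which runs from 0.39 to 0.84.

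The remaining enzymes of the pathway stayed near the controls. Etnk1 measured 21.0, 21.4 and 19.8 RPKM, Ept1 10.3, 10.8 and 11.04 RPKM and Cept1 10.7, 11.7 and 11.7 RPKM, with log2 differences from -0.09 to 0.06 and limma adjusted p-values of at least 0.933. Etnk2 was below the filter at 0.457, 1.00 and 0.611 RPKM. Etnk1 was lower in shEtnk1/2, at 12.5 RPKM, and shPcyt2 exceeded that library by 0.62 log2 units (limma adjusted p = 0.0014).

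Of 12 measured genes of the phosphatidylserine route and of phosphatidylcholine synthesis, 1 was above and 4 below both shLuc libraries. None of them was so by 0.25, and none was called by limma. Of all protein-coding genes, 29.0% were above and 39.4% below both. The mitochondrial decarboxylase Pisd measured 16.3, 15.3 and 15.4 RPKM, and the phosphatidylserine synthases Ptdss1 and Ptdss2 measured 17.1, 19.1 and 18.2 and 16.3, 15.6 and 16.7 RPKM. Pcyt1a, the counterpart of Pcyt2 in phosphatidylcholine synthesis, measured 24.2, 24.2 and 24.0 RPKM. Pemt, which methylates phosphatidylethanolamine to phosphatidylcholine, measured 2.21, 2.47 and 2.42 RPKM. Of the 12, Ptdss2 was above both shLuc libraries, and the choline kinase Chka was below both at 4.61, 4.27 and 3.73 RPKM (limma adjusted p = 0.875).

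Genes that use phosphatidylethanolamine were above both shLuc libraries in 12 of 21 cases and below both in 4. Their median log2 difference was 0.05, against -0.02 over all genes tested. Beside this count and those that follow, 29.0% of all protein-coding genes were above and 39.4% below both. Map1lc3b and Gabarap, which are joined to the lipid on autophagosomes, measured 91.9, 87.3 and 97.8 and 304, 308 and 328 RPKM. limma called none of the 21, and limma-voom called Pebp1, which measured 250.4 and 101 RPKM in the shLuc libraries and 263 in shPcyt2. Of the 18 genes of diacylglycerol, triglycerides and lipid droplets, 9 were above and 5 below both. Dgat1, which makes triglyceride from diacylglycerol, the lipid that the pathway would consume, measured 9.66, 9.15 and 7.47 RPKM, and Mgll, which cleaves monoglycerides, 2.44, 2.08 and 3.12 RPKM. Of 14 flippases and scramblases, which move aminophospholipids across membranes, 1 was above and 9 below both, with a median of -0.08. Their transcripts are long, with a median of 5148 nt, and with the length trend removed the median was -0.03. Of all protein-coding genes over 5000 nt, 15.0% were above and 58.7% below both.

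Genes that mark the mesenchymal state, among them collagens and other matrix proteins, stood near shLuc. Of 33 measured, 17 were above and 9 below both libraries, where 29.0% of all protein-coding genes were above and 39.4% below. None of the 33 was so by 0.25, limma called none, and the median was 0.05. limma-voom called 3 of them higher, Acta2, Tagln and Postn (adjusted p = 0.000689, 0.00227 and 0.0306). Col1a1, a chain of type I collagen, measured 2322, 2523 and 2683 RPKM, and Postn, the matrix protein periostin, 170, 201 and 222 RPKM. The smooth muscle genes Acta2 and Tagln measured 177, 233 and 260 and 68.8, 92.7 and 105.0 RPKM, so a large part of the distance from shLuc replicate 1 was already present in the library labelled replicate 2. Fn1 measured 380, 373 and 365 RPKM and Snai2, a transcription factor of the mesenchymal state, 20.0, 20.2 and 18.0 RPKM.

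The same genes were compared with shEtnk1/2. Over all 11814 genes, 315 (2.67%) were higher and 60 (0.508%) lower in shPcyt2 than in shEtnk1/2, with 1 library on each side. With 1 shLuc library left out, whichever it was, no gene passed limma's adjustment (506 and 435 had an unadjusted p below 0.05), in fits with the spread from the other 3 libraries taken as 1 group. Of the 33 mesenchymal genes 12 were lower in shPcyt2 and 0 higher. Lum, the proteoglycan lumican, measured 285 RPKM in shPcyt2 and 424 in shEtnk1/2, a log2 difference of -0.57. Col1a1 measured 2683 and 3600 RPKM (-0.42), Dcn, which encodes decorin, 249 and 353 RPKM (-0.50), Lox, which crosslinks collagen, 144 and 199 RPKM (-0.46), and Postn 222 and 346 RPKM (-0.63). The limma adjusted p-values of these 5 were between 9.4e-05 and 0.0131. These genes, except Postn and Col1a1, were chosen after their values were seen.

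The mesenchymal genes lower in shPcyt2 than in shEtnk1/2 numbered 6 with the length trend removed, 8 with median ratio scaling, 6 with quantile normalization and 15 by limma-voom, and 0 without a mean-variance trend. Against Etn-deprived 1 of the 33 was higher (Thy1) and 1 lower (Lox). Epithelial genes had few measured members, 11 of 28. Of these, 2 were above and 7 below both shLuc libraries, where 29.0% and 39.4% of all protein-coding genes were, and none was called. Cdh1, the epithelial cadherin, measured 10.9, 9.35 and 9.34 RPKM, and 6.04 RPKM in shEtnk1/2, where it was lower than in shPcyt2 by the contrast between them (0.55, limma adjusted p = 0.0246). Epcam measured 1.11, 1.92 and 0.977 RPKM, with the shLuc libraries further apart than the distance to shPcyt2.

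The transcripts of the 4 reprogramming factors were all below both shLuc libraries, with a median log2 difference of -0.12, and limma called none of them. Of all protein-coding genes, 39.4% were below both. Klf4 measured 394, 362 and 314 RPKM (log2 difference -0.27, SE 0.07, limma adjusted p = 0.161, limma-voom adjusted p = 0.0204), Sox2 311, 303 and 277 RPKM, Pou5f1 620, 569 and 554 RPKM and Myc 8.62, 7.99 and 7.73 RPKM. The table does not separate transcripts of the cells' own genes from any that were introduced. Sox2 stood at 209 RPKM in shEtnk1/2 and 200.3 in Etn-deprived, and shPcyt2 exceeded them by 0.41 (limma adjusted p = 0.00247) and 0.47 (limma adjusted p = 0.000199). Pou5f1 was higher in shPcyt2 than in shEtnk1/2 by 0.43, and Klf4 than in Etn-deprived by 0.40, with limma adjusted p-values of 0.00202 and 0.00235. Over all genes tested, 2.67% were called higher than in shEtnk1/2 and 5.06% than in Etn-deprived. With median ratio scaling or the length trend removed, 0 of the 4 genes were called against shEtnk1/2 and 2 of the 4 against Etn-deprived. Of all genes tested, 3.13% and 0.889% were higher than in Etn-deprived in these fits. None of the 4 was called in either contrast with a shLuc library left out.

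Against Etn-deprived, 598 genes (5.06%) were higher and 221 (1.87%) lower in shPcyt2. When shLuc replicate 1 was left out 0 passed limma's adjustment (1021 had an unadjusted p below 0.05), and without the library labelled replicate 2 only 1 did, Tmsb10 (950 below 0.05). Among 27 genes of oxidative phosphorylation, which build the respiratory chain and ATP synthase, 11 were higher in shPcyt2 than in Etn-deprived and 8 than in shEtnk1/2, and 0 were lower in either contrast. Ndufa12, a complex I subunit chosen after its values were seen, measured 73.0, 74.5 and 71.2 RPKM in the shLuc libraries and shPcyt2, but 44.6 in shEtnk1/2 and 37.0 in Etn-deprived. Cox5b, a subunit of cytochrome c oxidase, measured 127, 117 and 142.5 RPKM, and 93.8 and 89.3 RPKM in the other treatments. These genes are short, with a median of 940 nt, and the median difference from shLuc of all genes up to 700 nt was 0.05 in shPcyt2, -0.17 in shEtnk1/2 and -0.25 in Etn-deprived. With the length trend removed 3 of the 27 were higher than in Etn-deprived and 0 than in shEtnk1/2.

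Against shLuc itself, 16 of the 27 were above both libraries and 5 below, limma called none and the median was 0.03. In the length class that holds their median of 940 nt, 43.7% of protein-coding genes were above and 26.1% below both. With the length trend removed, the median of the 27 was 0.01, and that of all genes tested was 0.002. Glycolysis genes were above both in 12 of 17 cases and below both in 2, with a median of 0.07 and none called by limma, where 29.0% of all protein-coding genes were above and 39.4% below both. Pfkl, a phosphofructokinase, measured 15.3, 17.5 and 19.4 RPKM, and the glycolytic enzyme Pgk1 137, 143 and 156 RPKM. Relative to Etn-deprived 4 glycolysis genes were higher in shPcyt2 (Aldoa, Gapdh, Pgk1 and Slc16a3). With the length trend removed 0 were called, but the list median in this contrast changed little, from 0.20 to 0.19. Over all genes tested that fit lowered the number called higher from 598 to 105. Median ratio scaling left 1 glycolysis gene called and quantile normalization 0.

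TGF-beta targets had the most members at a distance. Of 22, 11 were above and 7 below both shLuc libraries, with 5 at least 0.25 above and 0 that far below. Among all protein-coding genes 29.0% were above and 39.4% below both, and 1.46% and 1.90% by at least 0.25. The list had a median of 0.09, which was 0.12 against shLuc replicate 1 and 0.04 against the library labelled replicate 2. Id3, an inhibitor of basic helix-loop-helix factors, measured 87.9, 83.8 and 110.8 RPKM, a log2 difference of 0.36 (SE 0.07, limma adjusted p = 0.0506, limma-voom adjusted p = 0.0306). Cdkn2b, an inhibitor of cyclin-dependent kinases, measured 30.4, 30.9 and 39.7 RPKM (0.36, SE 0.09, limma adjusted p = 0.0975). In both the shLuc libraries lay close together and shPcyt2 apart from them. Id3 stood at 117 RPKM in shEtnk1/2 and 80.5 in Etn-deprived, and its level in shPcyt2 exceeded that in Etn-deprived by 0.46 log2 units (limma adjusted p = 0.000756).

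In the other lists limma called no gene, and limma-voom called Mmp13 (NF-kB targets, adjusted p = 0.00101) and Fabp4 (adipocyte markers, adjusted p = 0.0242) higher. Beside the counts that follow, 29.0% of all protein-coding genes were above both shLuc libraries and 39.4% below both. Sterol and fatty acid synthesis had 12 of 32 above and 6 below both, with a median of 0.03. Endoplasmic reticulum stress had 9 of 19 above and 4 below, the integrated stress response 6 and 9 of 20, ERK feedback and targets 7 and 8 of 18, and the cell cycle 4 and 9 of 28. The p53 targets had 9 of 20 above and 2 below, with Gadd45a, a stress-induced growth arrest gene, at 4.86, 6.35 and 8.27 RPKM. Interferon response genes had a median of -0.01 against shLuc replicate 1 and 0.16 against the library labelled replicate 2, which itself lay 0.11 below replicate 1. NF-kB targets also differed in sign between the shLuc libraries, at -0.06 and 0.02. So did sterol and fatty acid synthesis at 0.033 and -0.008, ERK feedback and targets at 0.01 and -0.03, and the cell cycle at 0.01 and -0.03.

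Smaller lists add little. Their counts too stand beside shares of 29.0% above and 39.4% below both shLuc libraries over all protein-coding genes. Ethanolamine and phosphoethanolamine supply had 3 of 5 above both, with Sphk1, the sphingosine kinase, at 0.518, 0.996 and 1.84 RPKM. Plasmalogen synthesis had 1 of 5 above and 2 below, diacylglycerol kinases and protein kinase C 6 and 2 of 11, and mitophagy, mitochondrial dynamics and cardiolipin 5 and 8 of 19. Pluripotency genes had 4 of 26 measured, with 2 above and 1 below. Adipocyte markers had a median of 0.34 over 4 measured members, of which 3 were above and 1 below both shLuc libraries. Fabp4, a fatty acid carrier, measured 0.309, 2.93 and 4.43 RPKM, with most of the distance between the shLuc libraries, and Cebpa 1.01, 0.886 and 1.82 RPKM. Lpl, the most abundant member, was below both at 6.15, 5.42 and 4.72 RPKM, and Cd36 measured 1.19, 1.15 and 1.42 RPKM. limma called none of the 4. Skeletal muscle markers had medians of 0.24 and -0.20 against the shLuc libraries, keratinocyte markers -0.25 and 0.01, and macrophage markers 0.05 and -0.12. Neural and glial markers had 1 of 7 above and 3 below both, cartilage markers 2 and 1 of 4, and fibroblast markers 8 and 2 of 12. What part these cell types had in the differences was not tested.

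**Figure D5:**
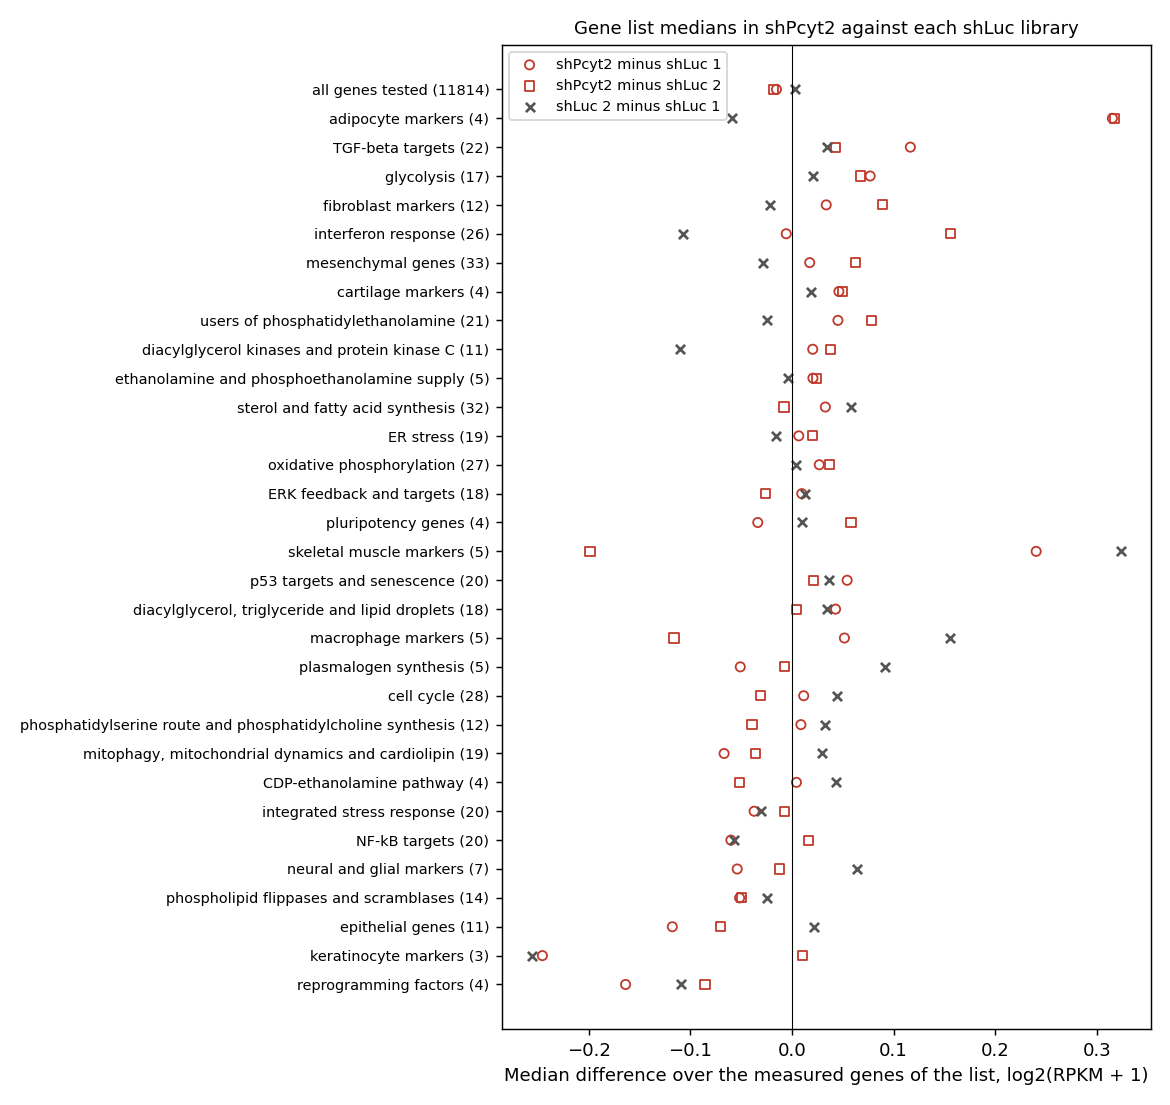
Median difference in log2(RPKM + 1) over the measured genes of each list (number in brackets), for lists with at least 3. Red circles and squares set shPcyt2 against shLuc 1 and the library labelled shLuc 2, and grey crosses set the shLuc libraries against each other. Most red symbols lie within 0.1 of 0, and in the skeletal muscle, keratinocyte, macrophage and interferon lists the red symbols lie far apart. Those of the adipocyte list lie furthest from 0, at 0.315 and 0.317.

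At the edge of the filter, Bmp15 was just inside with a mean of 1.00 RPKM and measured 0.874, 1.08 and 1.06 RPKM, and Vtcn1 was just outside with a mean of 0.998 and measured 1.097, 0.872 and 0.689 RPKM. Of the 16634 protein-coding genes in the table, 5095 fell below the filter.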

How the data were processed

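Polyadenylated RNA was read as 2 x 100 paired ends, per the labels' protocols. The authors deposited RPKM values. Per the submitters' processing notes, Bowtie 0.12.2 and the build mm10 were used. The sources used here do not name the gene models, the counter or the strand setting. For all 18303 lines of the table the values resolved into whole reads (within 1e-05 reads plus a relative 5e-09), which gave depth, Poisson intervals and transcript length. Of 2 symbols on 2 lines each, 1 line was kept. RefSeq matched all but 21 genes. Differences on log2(RPKM + 1), which understates changes of low genes, were tested with limma 3.58.1 (R 4.3.3) in a model of 5 group means over 6 libraries. Empirical Bayes was trended and robust, with 1 residual degree of freedom from the shLuc libraries and a prior of 24.84. P-values were two-sided and Benjamini-Hochberg adjusted over 11814 genes, with a threshold of 0.05. The fit was also run on simulated data in which every library had the same spread. That run cannot test whether shPcyt2 varies as shLuc does. Shared stretches (at least 98% identity, 100 nt) were sought in GENCODE M21 transcripts. Named genes were all of 3 lists (CDP-ethanolamine, phosphatidylserine and phosphatidylcholine, reprogramming factors), the called genes, the 12 furthest each way with at least 100 reads, up to 4 members per list and a panel of marker genes. The members, the 32 lists and the tests were chosen with earlier results of these data known.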

Additional observations from a re-analysis of the deposited data

Results flagged for a closer look

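Genes were picked out here from the named genes. In each, shPcyt2 and another block of the pathway lay on opposite sides of both shLuc libraries. The limma contrast between them also passed the threshold of 0.05. Many of these genes, such as 2310009A05Rik, Deb1, Hint2, Cbx8, Clu and Gm5148, had been named for the distance of shPcyt2 from both shLuc libraries. The contrasts use that same shPcyt2 value, so for such genes they are partly a result of the choice. Each contrast has 1 library on each side and takes its spread from the shLuc libraries. Values are shPcyt2 minus the other treatment in log2(RPKM + 1). What accounts for the differences was not tested.

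Among the genes so picked were 5 of the respiratory chain or its assembly, above both shLuc libraries in shPcyt2. These 5 had been named for their distance from both shLuc libraries or as called genes. Their place above both is therefore part of the choice and not a separate result. Of 27 oxidative phosphorylation genes 16 were above both there and 5 below. Of all protein-coding genes, 29.0% were above and 39.4% below both. In the length class that holds the list's median of 940 nt, the shares were 43.7% and 26.1%. With the length trend removed, the list median against shLuc was 0.01, and that of all genes tested was 0.002. Against shEtnk1/2 the differences were 0.598 for Cox5b, 0.335 for Ndufa4, 0.538 for Ndufaf2 and 0.35 for Ndufs3. Against Etn-deprived they were 0.669 for Cox5b, 0.523 for Ndufa4, 1.01 for Ndufaf2, 0.321 for Ndufs3 and 1.07 for Uqcc2. Most of these transcripts are short, and short transcripts as a class were higher in shPcyt2 than in the other treatments.

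Gm5148, which shares sequence with Rps23, differed by 1.36 from shEtnk1/2 and by 2.2 from Etn-deprived. DQ267100 differed from Etn-deprived by -3.22, with no read in shPcyt2.

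Of mesenchymal genes, Fn1 and Snai2 were lower in shPcyt2 than in shEtnk1/2, by -0.265 and -0.417. Thy1, a fibroblast surface glycoprotein, was higher than in Etn-deprived by 0.407. The TGF-beta target Id3 exceeded Etn-deprived by 0.457.

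Further differences from shEtnk1/2 were 0.609 for 2310009A05Rik, -0.602 for Deb1, 0.971 for Hint2, 1.07 for the microtubule-binding protein tau (Mapt) and 0.848 for the protein kinase C isoform Prkcb. Further differences from Etn-deprived were 0.846 for Cbx8, 0.291 for the p53 target Cdkn1a, 0.581 for Clu and 0.719 for the transcription factor Etv4. They were 0.268 for Pgk1, 0.482 for Sdf2l1 of the endoplasmic reticulum and 0.669 for the lactate transporter Slc16a3. Lower than in Etn-deprived were the choline phosphotransferase Chpt1 at -0.527, the cardiolipin synthase Crls1 at -0.425 and the proliferation marker Mki67 at -0.332.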

How the results depend on the processing

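The comparison rests on 1 treated library and a shLuc pair, so calls are few and move with every choice of spread. No paired analysis was possible because shPcyt2 has 1 library. Against shLuc the genes called higher and lower numbered 3 and 2; they were 0 and 0 with no filter on low values (1665 at an unadjusted p under 0.05), 1 and 0 at a mean of at least 5 RPKM, 6 and 7 with short RNA rows kept, 1 and 1 with median ratio scaling, quantile normalization or the length trend removed, 0 and 1 without a mean-variance trend, 26 and 10 by limma-voom, and 6 and 2 from shPcyt2 and shLuc libraries only. Without either shLuc replicate the range was 0 to 0 for both. Pcyt2 lost its call at -0.44 under the filters of 0 and 5 RPKM, with short RNA rows kept and without the trend, at -0.42 with median ratio scaling, -0.44 with quantile normalization and -0.46 with the length trend removed. Without 1 shLuc replicate it ran from -0.48 to -0.41. Genes above both numbered 5166 to 5172 without 1 replicate, and those at least 0.25 above and below 486 to 592 and 598 to 694. At that distance they numbered 255 and 394 with a pseudocount of 0.1, 270 and 412 by limma-voom, 282 above with no filter, and 76 and 86 at 5 RPKM.

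The contrasts with the other treatments were recomputed under alternatives chosen after the data were seen. Higher and lower than shEtnk1/2 were 0 and 0 with no filter (2265 at an unadjusted p under 0.05) and without the trend (1306), 90 and 20 with short RNA rows kept, 62 and 24 with median ratio scaling, 51 and 18 with quantile normalization, 165 and 93 by limma-voom, and 31 and 22 with the length trend removed. For Etn-deprived the numbers were 0 and 0 with no filter (2859), 3 and 1 without the trend, 326 and 59 with short RNA rows kept, 370 and 69 with median ratio scaling, 235 and 69 with quantile normalization, 378 and 368 by limma-voom, and 105 and 61 with the length trend removed. Without 1 shLuc replicate, with the spread from the other 3 libraries taken as 1 group, the range was 0 to 0 for both directions against shEtnk1/2, and 0 to 1 higher and 0 to 0 lower against Etn-deprived.

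Signs turned for genes near 0. With the length trend removed this gave Far1 0.000467, Fn1 0.027, Map2 0.018, Pcyt1a 0.040 and Pcyt1b 0.010. Median ratio scaling gave Lpcat3 0.0073 and Pcyt1a 0.011, and quantile normalization Pcyt1a 0.0031. Without 1 shLuc replicate the values ran from -0.035 to 0.0071 for Lpcat3, -0.014 to 0.11 for Mboat1, -0.094 to 0.15 for Mboat2, -0.019 to 0.094 for Pemt, -0.073 to 0.011 for Pisd, -0.060 to 0.086 for Ptdss1, -0.10 to 0.025 for Pcyt1b and -0.049 to 0.066 for Zeb1. Of the settings run for named genes, 1889 gave the same direction and side of the threshold. The cause of the lost calls was not tested.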

Other observations

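Without the minimum of 100 reads, the genes furthest above both shLuc libraries, chosen after their values were seen, included Tnmd and Alox5ap. Tnmd, the tendon and ligament protein tenomodulin, measured 1.46 and 1.53 RPKM in shLuc and 3.39 RPKM in shPcyt2, with 3.24 in shEtnk1/2, 3.20 in Etn-deprived and 1.86 in shPebp1. It was thus above both shLuc libraries in shPcyt2, shEtnk1/2 and Etn-deprived, and by less in shPebp1. These values rest on 87, 85, 79 and 46 reads, against 39 and 40 in shLuc. Activity of the pathway was not measured. The limma adjusted p of Tnmd in shPcyt2 was 0.0721. Alox5ap, which assists leukotriene synthesis, measured 1.34, 1.55 and 2.78 RPKM, with 3.38 and 3.21 RPKM in shEtnk1/2 and Etn-deprived and 1.51 in shPebp1, and its limma adjusted p was 0.289. On the low side Inha, the alpha subunit of inhibin, measured 4.85, 4.83 and 2.89 RPKM, with 3.22, 2.21 and 2.90 RPKM in shEtnk1/2, Etn-deprived and shPebp1.

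limma-voom called 36 genes, of which 26 were higher in shPcyt2. Myl9, a myosin light chain named after its values were seen, measured 86.2, 104.5 and 128.1 RPKM in shLuc replicate 1, the library labelled replicate 2 and shPcyt2. All 26 were above both shLuc libraries, and in 19 of them the library labelled replicate 2 was already above replicate 1. Pebp1 was among the 36, with its difference set by the library labelled replicate 2.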
